A study of Mus musculus with 4 samples.

Results

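Genes that mark the kidney's nephron were followed through 4 microarrays of sorted cells from the mouse small intestine. A list of 39 genes, ordered by the nephron segment in which each is known to act, was matched to array features whose annotation gives a single gene symbol. Of these, 38 were measured, each by 1 feature, out of 30702 genes on the arrays. The remaining gene, Ggt1, a brush border enzyme of glutathione breakdown, had no feature with a single symbol and is not reported. The list was drawn up after the difference between the non-stem and wild-type stem arrays had been seen, so the members' values in that comparison are a description.

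The study profiled coding and long noncoding RNA in intestinal stem cells on Clariom D arrays, with 1 array per group. Every mouse was 8 weeks old and carried GFP and CreERT2 driven by Lgr5, a receptor gene of crypt base stem cells. The non-stem array holds wild-type cells without GFP, and the wild-type stem array holds wild-type cells with GFP. The other arrays hold cells with GFP from mice with mutated LncGata6, a long noncoding RNA, and from Ehf knockout mice, which lack an ETS transcription factor of epithelia. The labels do not say how LncGata6 was mutated, whether animals were pooled, or which sex they were. The collection protocol, which is shared by all 4 samples, speaks of an ILCreg sort, an innate lymphoid population, and leaves the gate uncertain. Each group is a single array, so no difference here has an estimate of its error and no test was possible.

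The nephron filters blood at the glomerulus and then recovers most of the filtrate along a tubule. The proximal tubule takes back phosphate, glucose, amino acids and filtered protein and secretes organic ions. The thick ascending limb and distal convoluted tubule recover salt, and the collecting duct adjusts water, sodium and acid through its principal and intercalated cells. Most of these carriers are made in few other organs. A minority, among them cubilin, some aquaporins and the sulfate and monocarboxylate carriers, are also made in gut epithelium.

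The 250 bases that precede the transcription start are shown for 4 members that differ strongly between the arrays and hold a match to a searched motif. The sequences come from RefSeq on GRCm38.p6, are written 5′ to 3′ in the direction of transcription, and carry the match in capitals. For Kap, at chr6:133853668-133853917 on the minus strand, the capitals mark a TATA box, TATAAA, which begins 31 bases before the start. For Acsm2, at chr7:119561458-119561707 on the plus strand, Cubn, at chr2:13491877-13492126 on the minus strand, and Slc12a1, at chr2:125152350-125152599 on the plus strand, they mark the core of the HNF1 site, TTAATNATT, read on either strand. These matches begin 56, 187 and 209 bases before the start.
Kap: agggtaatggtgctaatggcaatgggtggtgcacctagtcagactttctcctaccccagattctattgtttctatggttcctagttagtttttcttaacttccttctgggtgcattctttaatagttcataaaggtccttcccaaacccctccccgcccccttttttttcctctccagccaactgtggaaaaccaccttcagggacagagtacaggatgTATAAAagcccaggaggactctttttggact
Acsm2: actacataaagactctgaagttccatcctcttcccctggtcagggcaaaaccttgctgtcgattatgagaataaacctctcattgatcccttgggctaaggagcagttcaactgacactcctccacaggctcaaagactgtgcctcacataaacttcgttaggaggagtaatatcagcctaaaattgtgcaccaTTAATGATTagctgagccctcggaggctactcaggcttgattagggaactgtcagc
Cubn: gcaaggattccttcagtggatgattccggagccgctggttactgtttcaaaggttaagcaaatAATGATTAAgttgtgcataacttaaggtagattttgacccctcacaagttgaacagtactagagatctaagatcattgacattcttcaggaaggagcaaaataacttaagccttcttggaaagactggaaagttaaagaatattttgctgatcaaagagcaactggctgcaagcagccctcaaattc
Slc12a1: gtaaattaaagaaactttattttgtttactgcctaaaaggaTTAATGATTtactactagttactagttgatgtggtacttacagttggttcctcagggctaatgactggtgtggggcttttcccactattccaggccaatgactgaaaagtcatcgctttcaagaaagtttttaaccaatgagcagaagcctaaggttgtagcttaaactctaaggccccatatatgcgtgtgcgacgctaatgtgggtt

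The table of promoters held 31 of the 39 listed genes, Ggt1 included, and 27025 genes in all. It had no entry for Slc5a2, Slc13a1, Slc6a18, Slc7a13, Napsa, Calb1, Atp6v0d2 and Cdh16. Motifs were counted on both strands of windows of 300 bases, 50 of them after the start. HNF1 factors are transcription factors of kidney, liver and gut, and the full palindrome GTTAATNATTAAC, which contains the core, was in 0 of 31 members and 0.0111% of all genes. The core TTAATNATT was in 3 of 31 members, against 1.72% of all genes. TATAAA was in 8 of 31 members, against 15.7% of all genes. Those 8 were Acsm2, Aqp3, Ggt1, Kap, Miox, Slc12a3, Slc26a4 and Slc34a1. The androgen response element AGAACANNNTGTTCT, the HNF4 element CAAAGTCCA and the oestrogen-related receptor element TCAAGGTCA were in 0 of 31 members. They were in 0.0111%, 0.555% and 0.466% of all genes. A match is a string of letters in these windows and not evidence of binding.

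Values are on the log2 scale as the authors deposited them, and each array has its own background. The control limit, the 95th percentile of an array's negative controls, was 5.16 on the non-stem array, 5.62 on the wild-type stem, 5.31 on the LncGata6 mutant and 5.19 on the Ehf knockout array. A gene was called higher or lower where 2 arrays differed by at least 1, which is 2-fold, and the brighter value reached the 75th percentile of genes on its own array. Where the dimmer value was under its control limit, that limit replaced it and the fold is written as "at least". No fold is given where the bound came to under 1. Levels of different genes come from different probes and were not compared with each other. The control limit was reached by 8122 genes (26.5%) on the non-stem array, 5071 (16.5%) on the wild-type stem, 6165 (20.1%) on the LncGata6 mutant and 5359 (17.5%) on the Ehf knockout array. Values of Lgr5, Ehf, Xist and other genes outside the lists were looked up with earlier results known. Lgr5, at 9.41 on the wild-type stem array, was at 2.79 to 3.03 on the other 3, so both mutant arrays labelled as GFP-positive read it under the limit. Ehf was above the limit on the wild-type stem array alone, at 6.99. It was under it at 3.03 on its own knockout array, but also at 3.75 on the non-stem and 5.09 on the LncGata6 mutant array, so a low value was not particular to the knockout.

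On the non-stem array 31 of the 38 members were above the control limit, and all 31 were called higher than on the wild-type stem array. None was called lower. Across all genes 7.07% were called higher and 3.82% lower in that comparison, which is the one the list was drawn from. The members' median difference was 5.10, a difference of log2 values, and that of all genes was 0.11. Against the LncGata6 mutant array 29 of 38 members were called higher (6.87% of all genes), with a median difference of 4.95. Against the Ehf knockout array 30 were called higher (9.83% of all genes), with a median of 5.48. None was called lower in either, where 3.66% and 3.01% of all genes were. A call of lower needs a bright stem value. Of the 38 members, 36 were under the control limit on the wild-type stem, 33 on the LncGata6 mutant and 36 on the Ehf knockout array. Few members could therefore have been called lower. The 3 comparisons share the non-stem array. In RNA of sorted populations a smaller share of a cell type and less RNA per cell cannot be told apart.

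For 25 members the non-stem array was the only 1 of the 4 on which the gene was above background, a pattern seen in 6.84% of all genes. Another 6 members were also above the control limit on at least 1 stem array, and 7 were under it on all 4. Of the 32 members at background on the 3 stem arrays, Atp6v0d2 alone had values there that differed by more than 1. The plot of members by array shows the separation, with the filled non-stem points to the right of the stem points.

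**Figure D1:**
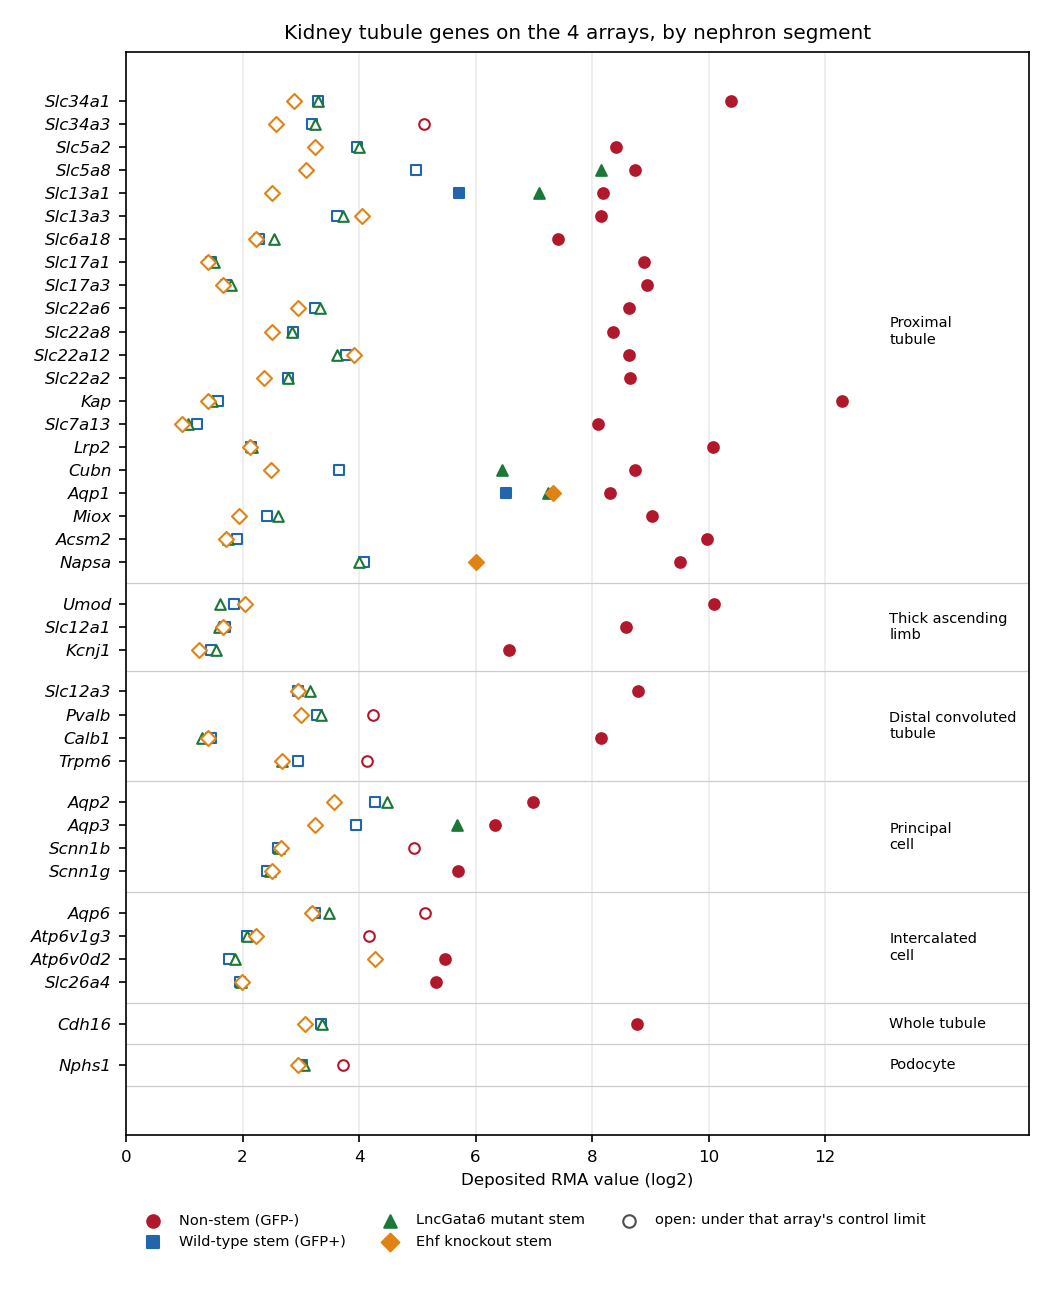
Deposited log2 value (x axis) of each of the 38 measured members (y axis, grouped by nephron segment) on the 4 arrays, 1 point per array, with open symbols under that array's control limit. The non-stem value is the highest of the 4 for every member, and 7 members are open on all arrays, while levels of different genes are not comparable.

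Carriers of phosphate, sugar, salt and amino acids in the proximal tubule came first along the nephron. Of these 9 genes, 8 were called higher on the non-stem array than on the wild-type stem array, with a median difference of 4.52. Slc34a1, the main sodium-phosphate carrier of the brush border, read 10.39 on the non-stem array, 3.30 on the wild-type stem, 3.30 on the LncGata6 mutant and 2.88 on the Ehf knockout array. That is at least 27.1-fold higher on the non-stem array than on the wild-type stem array. Its relative Slc34a3 read 5.12 on the non-stem array, just under the control limit, and 2.58 to 3.24 on the stem arrays, and was not called. Slc5a2, the glucose carrier SGLT2 of the early proximal tubule, read 8.41 against 3.24 to 3.99 on the stem arrays. Only the non-stem array showed it above background, at least 6.90-fold higher than the wild-type stem array.

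Slc17a1 and Slc17a3, which lie next to each other and carry phosphate and urate, had closely similar patterns. Slc17a1 read 8.90 on the non-stem array and 1.41 to 1.52 on the stem arrays. Slc17a3 read 8.94 and 1.67 to 1.81. Both were among the larger differences in the list, 7.44 and 7.22, with folds of at least 9.68 and at least 9.99. Slc6a18, a neutral amino acid carrier of the later proximal tubule, read 7.42 and 2.23 to 2.54, at least 3.48-fold. Slc13a3, the carrier of dicarboxylates such as succinate on the blood side, read 8.15 and 3.63 to 4.05, at least 5.78-fold. The other carriers of this group, Slc5a8 and Slc13a1, were also seen on stem arrays and are described further on.

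All 4 carriers of organic ions were called higher on the non-stem array than on the wild-type stem array, and all 4 were at background on every stem array. Slc22a6 (OAT1), which takes up organic anions from blood, read 8.63 on the non-stem array and 2.95 to 3.33 on the stem arrays, at least 8.04-fold over the wild-type stem array. Slc22a8 (OAT3), its neighbour on the chromosome with a like role, read 8.35 and 2.51 to 2.87, at least 6.64-fold. Slc22a2 (OCT2), the organic cation carrier, read 8.65 and 2.37 to 2.78, at least 8.17-fold. Slc22a12 (URAT1), the urate exchanger of the brush border, read 8.63 and 3.61 to 3.92, at least 8.05-fold. The 4 differences ran from 4.85 to 5.87.

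The straight part of the proximal tubule was represented by Kap and Slc7a13. Kap encodes a kidney protein under androgen control, and its promoter is the first shown above. It read 12.30 on the non-stem array, 1.58 on the wild-type stem, 1.48 on the LncGata6 mutant and 1.41 on the Ehf knockout array. Its difference of 10.72 from the wild-type stem array ranked 1 among all genes, and the fold was at least 102. Against the LncGata6 mutant and Ehf knockout arrays the folds were at least 127 and at least 138, with the larger bounds set by the lower control limits of those arrays. Slc7a13, a cystine and aspartate carrier of the same stretch, read 8.10 and 0.96 to 1.22, at least 5.58-fold over the wild-type stem array.

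Filtered protein is taken up through megalin and cubilin. Lrp2, which encodes megalin, read 10.08 on the non-stem array, 2.15 on the wild-type stem, 2.16 on the LncGata6 mutant and 2.13 on the Ehf knockout array. It was therefore at least 21.9-fold higher on the non-stem than on the wild-type stem array. Its partner Cubn was called higher on the non-stem array too and was also above background on the LncGata6 mutant array, as given further on. Miox, the inositol oxygenase of the proximal tubule, read 9.03 and 1.94 to 2.62, at least 10.6-fold. Acsm2, a mitochondrial acyl-CoA synthetase whose promoter is shown above, read 9.97 and 1.72 to 1.90, at least 20.3-fold. Napsa, an aspartic protease of kidney and lung, read 9.50 on the non-stem array and 4.09 on the wild-type stem array, at least 14.7-fold. Of the 21 proximal members measured, 20 were called higher than on the wild-type stem array, 19 than on the LncGata6 mutant array and 19 than on the Ehf knockout array.

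The thick ascending limb followed with all 3 of its genes called higher, at a median difference of 6.89. Umod, which encodes uromodulin, the most abundant protein of urine, read 10.10 on the non-stem array, 1.85 on the wild-type stem, 1.61 on the LncGata6 mutant and 2.04 on the Ehf knockout array. It ranked 21 among all genes by difference and was at least 22.3-fold higher on the non-stem than on the wild-type stem array. Slc12a1, the furosemide-sensitive cotransporter NKCC2, read 8.58 and 1.59 to 1.69, at least 7.76-fold. Kcnj1, the potassium channel ROMK that recycles potassium for it, read 6.57 and 1.25 to 1.55, at least 1.93-fold. Its bound is small beside its difference of 5.12, since the wild-type control limit stood in for a far dimmer value.

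In the distal convoluted tubule the 4 genes split. Slc12a3, the thiazide-sensitive cotransporter NCC, read 8.79 on the non-stem array and 2.95 to 3.16 on the stem arrays, at least 8.96-fold. Calb1, the calcium-binding calbindin, read 8.15 and 1.30 to 1.45, at least 5.76-fold. Pvalb, the parvalbumin of the early distal segment, read 4.24 and 3.01 to 3.35. Trpm6, its magnesium channel, read 4.14 and 2.68 to 2.95. Both of these were under the control limit on all 4 arrays, and neither was called or has a fold.

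Of the 4 principal cell genes of the collecting duct, 3 were called higher than on the wild-type stem array, with a median difference of 2.55. Aqp2, the vasopressin-regulated water channel, read 6.99 on the non-stem array, 4.28 on the wild-type stem, 4.49 on the LncGata6 mutant and 3.56 on the Ehf knockout array. It was at least 2.58-fold higher on the non-stem than on the wild-type stem array. The epithelial sodium channel subunits lie side by side on the chromosome, and they lay on either side of the limit. Scnn1g read 5.70 and 2.42 to 2.51, at least 1.06-fold, whereas Scnn1b read 4.95 and 2.62 to 2.66, under the control limit on all 4 arrays. Aqp3, the water channel on the blood side of these cells, was also present on the LncGata6 mutant array.

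Intercalated cells secrete acid or base, and 2 of their 4 genes were called higher on the non-stem array than on the wild-type stem array. Slc26a4, the chloride-bicarbonate exchanger pendrin, read 5.32 on the non-stem array and 1.96 to 1.99 on the stem arrays. Atp6v0d2, a subunit of the proton pump, read 5.48 on the non-stem array, 1.77 on the wild-type stem, 1.87 on the LncGata6 mutant and 4.28 on the Ehf knockout array. Its Ehf knockout value stood apart from the other stem arrays but was under that array's control limit. Both non-stem values were only just above the non-stem limit and gave bounds under 1, so no fold is stated. Aqp6, an intracellular water channel, read 5.13 on the non-stem array, and Atp6v1g3, another pump subunit, read 4.18, and both were under the control limit on all arrays.

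Cdh16, the kidney-specific cadherin found along the whole tubule, read 8.76 on the non-stem array and 3.07 to 3.36 on the stem arrays, at least 8.82-fold over the wild-type stem array. Nphs1, which encodes nephrin of the podocyte slit diaphragm and is the 1 glomerular gene listed, read 3.72 on the non-stem array and 2.95 to 3.05 on the stem arrays. Nephrin was thus under the control limit on all 4 arrays. By segment, 20 of 21 proximal genes, 3 of 3 thick ascending limb genes, 2 of 4 distal convoluted genes and 5 of 8 collecting duct genes were called higher. The median difference was 5.41 for the proximal genes and 2.55 for the collecting duct genes, whose own range was 1.89 to 3.71. Proximal differences ran from 1.78 to 10.72, so the segments overlapped, and with probes differing between genes these medians do not rank the segments by amount of RNA.

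**Figure D2:**
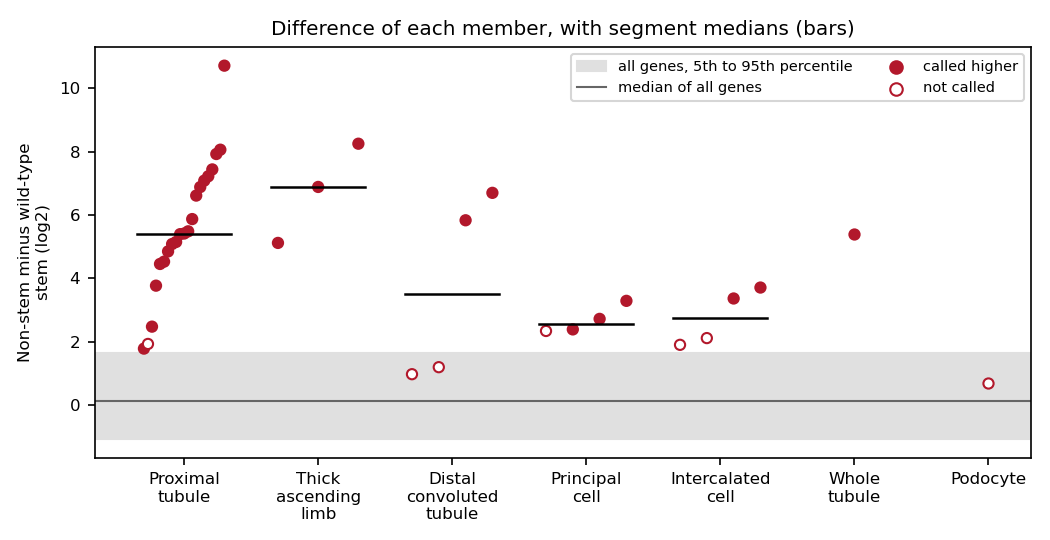
Difference between the non-stem and wild-type stem arrays (y axis, log2) for each member, by nephron segment (x axis), with bars at segment medians, filled points for genes called higher and a grey band from the 5th to the 95th percentile of all genes. The proximal and thick ascending limb medians are 5.41 and 6.89, the collecting duct points lie between 1.89 and 3.71, and nephrin lies at 0.70 inside the band of -1.08 to 1.63.

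Kap, Slc7a13 and Slc22a12 belong to a set of kidney genes known to depend on androgen in the mouse. The set, like the members, was chosen with earlier results in view. All 8 of its genes were called higher on the non-stem array than on each stem array. Of all genes, 7.07% were called higher against the wild-type stem, 6.87% against the LncGata6 mutant and 9.83% against the Ehf knockout array. The set's median difference from the wild-type stem array was 6.50. Besides the members, Cyp4a12a, a fatty acid hydroxylase, read 8.75 on the non-stem array and 1.52 on the wild-type stem array. Slco1a1, an organic anion carrier of kidney and liver, read 8.02 and 1.18. Of 2 female-biased kidney genes measured, Cyp4a14, which liver also makes, read 8.73 and 1.84, and Slc7a12 read 4.22 and 1.03, under the control limit on all arrays. Genes of the sex chromosomes differed between the same arrays. Xist, the RNA of the inactive X, read 1.93 on the non-stem array, 8.46 on the wild-type stem, 2.44 on the LncGata6 mutant and 8.79 on the Ehf knockout array. The Y-linked gene Uty read 5.28, 3.39, 4.50 and 1.92 on those arrays, and the non-stem value alone was above its control limit. The Y-linked genes Eif2s3y, at 4.66, 3.95, 4.82 and 2.01, and Kdm5d, at 4.50, 3.43, 4.48 and 2.13, were under the limit on all 4 arrays. Kap and Slc7a13 were at background on the LncGata6 mutant array, whose Xist was low, as on the non-stem array. The part of the animals' sex in the members' values was not tested.

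The remaining 6 members were above the control limit on at least 1 stem array, and the members called in either mutant comparison were all among them. Against the wild-type stem array, 4 of 38 members were called higher on the LncGata6 mutant array, where 2.8% of all genes were, and none lower (3.01% of all genes). They were Slc5a8, Slc13a1, Cubn and Aqp3. On the Ehf knockout array 1 member, Napsa, was called higher (2.59% of all genes) and 2, Slc5a8 and Slc13a1, lower (5.28% of all genes). Slc5a8 and Slc13a1 were thus called in opposite directions, as 0.664% of all genes were. A call of lower on the Ehf knockout array needs a wild-type stem value at or above that array's 75th percentile of genes, 4.97. Among the members only Slc5a8, Slc13a1 and Aqp1 reached it, so no other member could be called lower. The share of members called lower is therefore not comparable with that of all genes. Both comparisons share the wild-type stem array. The members' median differences were 0.04 for the LncGata6 mutant and -0.12 for the Ehf knockout, and those of all genes were -0.06 and -0.20. General epithelial genes were also lower on the Ehf knockout array, where 10 of 11 were called lower than on the wild-type stem array, with a median difference of -5.20, and 10 of 11 were under the control limit. Their part in the members' values on that array was not tested.

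Slc5a8, a sodium-coupled carrier of lactate and short fatty acids, read 8.74 on the non-stem array, 4.98 on the wild-type stem, 8.15 on the LncGata6 mutant and 3.10 on the Ehf knockout array. The non-stem and LncGata6 mutant values were close, 0.59 apart, and both were far above the other arrays. The LncGata6 mutant value was at least 5.75-fold that of the wild-type stem array. The wild-type stem value was itself under its control limit and just past the brightness limit of 4.97, so the call of lower on the Ehf knockout array has no fold.

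Slc13a1, the sodium-sulfate carrier of kidney and gut, read 8.19 on the non-stem array, 5.72 on the wild-type stem, 7.09 on the LncGata6 mutant and 2.50 on the Ehf knockout array. It was high on the first, intermediate on the next pair and at background on the Ehf knockout array. The non-stem array was 5.54-fold above the wild-type stem array and 2.14-fold above the LncGata6 mutant array. The LncGata6 mutant array was 2.59-fold above the wild-type stem array, which was at least 1.45-fold above the Ehf knockout array.

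Cubn, the receptor that takes up vitamin B12 bound to intrinsic factor in the ileum and filtered protein in the kidney, read 8.73 on the non-stem array, 3.65 on the wild-type stem, 6.46 on the LncGata6 mutant and 2.49 on the Ehf knockout array. Only the non-stem and LncGata6 mutant arrays showed it above background, with the former 4.82-fold higher. Megalin, its partner in the kidney, was at 2.16 on the LncGata6 mutant array. Aqp3, which gut epithelium also makes, read 6.33 on the non-stem array, 3.95 on the wild-type stem, 5.68 on the LncGata6 mutant and 3.24 on the Ehf knockout array. Its non-stem and LncGata6 mutant values differed by 0.65, 1.57-fold, and were not called different.

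Genes of absorptive enterocytes also differed between the stem arrays. All 16 genes of an enterocyte list were called higher on the LncGata6 mutant than on the wild-type stem array (2.8% of all genes), as these 4 members were. The median difference of the list was 2.85, and its genes Mep1a and Anpep also stand in the list of proximal enzymes below. On the Ehf knockout array 11 of 16 were called lower than on the wild-type stem array (5.28% of all genes), as Slc5a8 and Slc13a1 were. Cubn and Aqp3, at 3.65 and 3.95 on the wild-type stem array, were too dim there to be called lower. The non-stem array did not follow the members. Against the wild-type stem array 8 of 16 enterocyte genes were called higher and 1 lower (7.07% and 3.82% of all genes). Against the LncGata6 mutant array 1 was called higher and 13 lower (6.87% and 3.66% of all genes). The members Slc13a1 and Cubn were called higher in that last comparison. The count above the control limit was 16 for the non-stem array, 11 for wild-type stem, 16 for the LncGata6 mutant and 3 for the Ehf knockout. On the log2 scale their summed level was highest on the LncGata6 mutant array, at 14.8, stood at 12.8 on the non-stem array and was lowest on the Ehf knockout array, at 8.30, with the wild-type stem array between those last. The part of enterocyte RNA in the values of Slc5a8, Slc13a1, Cubn and Aqp3 was not tested. On the LncGata6 mutant array, 33 of the 38 members were under the control limit.

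Aqp1, the water channel of the proximal tubule and thin limb, which red cells and capillary endothelium also make, was the only member above background on all 4 arrays. It read 8.30 on the non-stem array, 6.53 on the wild-type stem, 7.24 on the LncGata6 mutant and 7.33 on the Ehf knockout array. The non-stem value was 3.42-fold, 2.08-fold and 1.96-fold that of the 3 stem arrays in that order, and the last was not called. Napsa read 4.01 on the LncGata6 mutant array and 6.01 on the Ehf knockout array, where it was at least 1.31-fold above the wild-type stem array. The non-stem array was 11.3-fold above the Ehf knockout array for Napsa, and the 2 were the only arrays with Napsa above background.

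Blood cell genes were also high on the Ehf knockout array. Of 3 red cell genes measured, Alas2, the heme synthesis enzyme of erythroid cells, read 7.17 on the non-stem array, 2.94 on the wild-type stem, 2.87 on the LncGata6 mutant and 8.11 on the Ehf knockout array. Slc4a1, the band 3 anion exchanger, which intercalated cells also make, read 6.19, 3.51, 3.58 and 8.23 in the same order. The summed red cell level was 7.85, 4.70, 4.66 and 9.26 on the log2 scale. Ptprc, which encodes the leukocyte antigen CD45, read 6.25, 5.72, 7.80 and 8.41. The summed endothelial level was 9.28, 8.63, 6.83 and 7.15. Of 9 endothelial genes, 3 were called higher on the non-stem than on the wild-type stem array (7.07% of all genes). The parts of blood and endothelial cells in the values of Aqp1, Napsa and Atp6v0d2 were not tested.

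**Figure D3:**
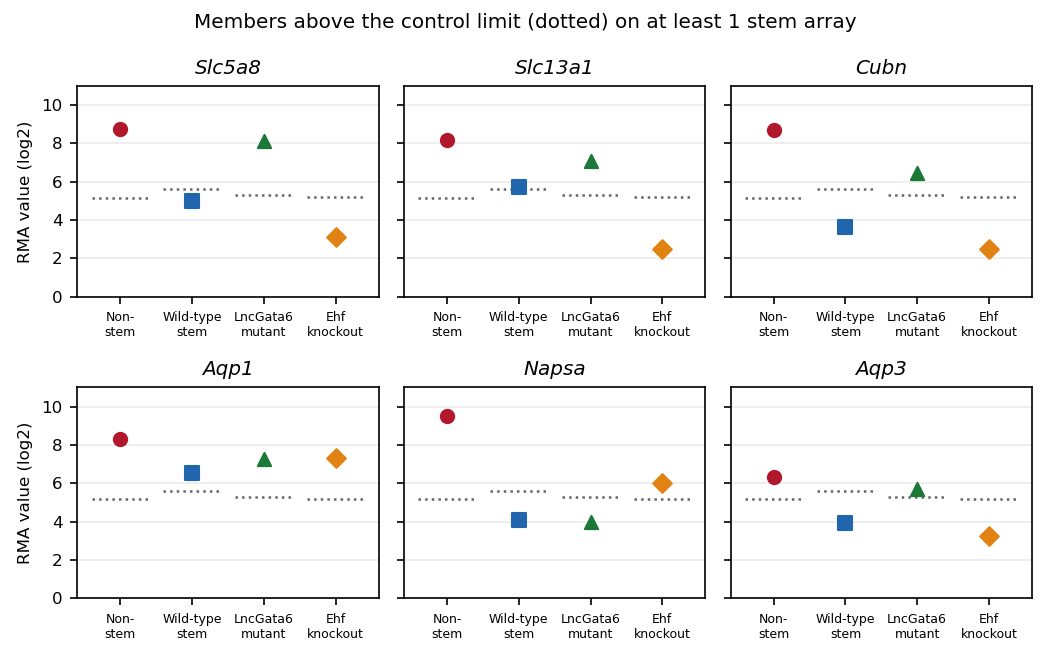
Log2 value (y axis) of the 6 members above the control limit (dotted, drawn per array) on at least 1 stem array, 1 point for each of the 4 arrays (x axis). Slc5a8, Slc13a1, Cubn and Aqp3 are higher on the LncGata6 mutant than on the wild-type stem array, Napsa is above its limit on the Ehf knockout array at 6.01, and Aqp1 is above the limit on all 4.

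Further nephron genes outside the list were read in the same way. Of 24 other proximal carriers, 22 were called higher on the non-stem than on the wild-type stem array (7.07% of all genes). None was called lower (3.82% of all genes), and the median difference was 3.41. Cltrn, the collectrin that brings amino acid carriers to the brush border, was at least 8.73-fold higher. Slc47a1, the organic cation exporter MATE1, was at least 8.37-fold higher. Slc22a19, an organic anion carrier, was at least 4.54-fold higher. Slc5a12, a lactate carrier of kidney and gut, read 8.90 on the non-stem array, 2.15 on the wild-type stem, 7.52 on the LncGata6 mutant and 2.25 on the Ehf knockout array. As with Slc5a8, its wild-type stem value was under the control limit, and so was its value on the Ehf knockout array. Unlike Slc5a8, Slc5a12 was called higher on the non-stem than on the LncGata6 mutant array. Against the wild-type stem array, 9 of these carriers were called higher on the LncGata6 mutant array and 1 was called lower. The shares of all genes were 2.8% and 3.01%. For the Ehf knockout 1 was called higher and 6 were called lower, against 2.59% and 5.28% of all genes.

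Proximal enzymes gave 22 called higher and none lower of 25, against 7.07% and 3.82% of all genes, with a median difference of 4.49. Keg1, a glycine N-acyltransferase-like gene of the kidney, was at least 17.4-fold higher on the non-stem than on the wild-type stem array. Aadat, the kynurenine aminotransferase, was at least 12.1-fold higher, and Ugt3a1, a glycosyltransferase, at least 9.13-fold. Kl, which encodes Klotho, the co-receptor for FGF23, was at least 10.9-fold higher. Against the LncGata6 mutant array 19 of these enzymes were called higher and 2 lower, where 6.87% and 3.66% of all genes were. Hepatocyte genes were also high on the non-stem array, as given below. The part of liver RNA in the values of these enzymes was not tested.

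Genes outside the proximal lists were read next. Of 9 other genes of the loop of Henle, 4 were called higher. Among them were Egf, the epidermal growth factor precursor, at least 8.77-fold, and Cldn10, a paracellular sodium pore, at least 2.89-fold. In the same list Cldn14, Cldn16, Cldn19 and Bsnd were under the control limit on all 4 arrays. Of 12 other distal genes, 8 were called higher, among them Fxyd2, the gamma subunit of the sodium pump, at least 16.1-fold, and S100g, a calcium-binding protein that gut also makes, at least 13.6-fold. Of 10 other principal cell genes, 3 were called higher, led by the transcription factor Tfcp2l1 at 7.33 against 4.54. Avpr2, Aqp4, Fxyd4, Elf5, Kcne1 and Ptges were under the control limit on all 4 arrays. Of 10 other intercalated cell genes, 5 were called higher, led by the proton pump subunit Atp6v0a4 at 7.09 against 2.25. Foxi1, Atp6v1c2, Hmx2 and Oxgr1 were under the control limit on all 4 arrays. No gene in these 4 lists was called lower than on the wild-type stem array. Of all genes, 7.07% were called higher and 3.82% lower.

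Glomerular and regulatory genes included calls in both directions. Of 7 other glomerular genes, 2 were called higher and 1 lower, and the podocyte genes Wt1, Synpo and Ptpro were under the control limit on all 4 arrays. Cldn1, a tight junction gene of the capsule lining, read 6.38 against 2.61. Of 13 kidney transcription factors, 4 were called higher and 1 lower. Pax2, Lhx1, Emx2, Esrrb, Tfap2b and Irx1 were under the control limit on all 4 arrays. Pax8, a nephron lineage factor, read 5.70 on the non-stem array and 3.31 on the wild-type stem array, at least 1.06-fold. Ppara read 6.85 and 4.45 on these arrays. Hnf4g, a nuclear receptor of gut and kidney, went the other way, at 6.19 against 7.38. Over the members and all these kidney lists together, 106 of 154 measured genes were called higher and 2 lower, with a median difference of 2.94. Of all genes, 7.07% were called higher and 3.82% lower.

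Lists for 5 other organs were read, namely liver, adrenal cortex, pancreas, skeletal muscle and lung, and of these the liver list was high on the non-stem array. Of 17 hepatocyte genes, 16 were called higher than on the wild-type stem array (7.07% of all genes), with a median difference of 8.25. All 17 were above the control limit on the non-stem array. Alb, which encodes serum albumin, read 12.52 on the non-stem array and 1.83 to 2.17 on the stem arrays, at least 119-fold. Mup20, a major urinary protein made by male liver, was at least 53.2-fold higher, and Fgg, a fibrinogen chain, at least 37.2-fold. On the log2 scale the summed hepatocyte level was 15.1 on the non-stem array and 8.83 to 10.1 on the stem arrays, where 1 or 2 of the 17 genes were above the control limit. The part of liver RNA in the values of the members and of the other kidney lists was not tested.

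The other organ lists gave few calls or none. None of 7 adrenal cortex genes, 10 skeletal muscle genes or 8 lung epithelium genes was called in the comparison of the non-stem and wild-type stem arrays, with median differences of 0.20, -0.06 and -0.25. All 8 lung genes were under the control limit on all 4 arrays, and so were all 7 adrenal genes. Of 9 pancreatic acinar genes, Clps, the colipase gene, was called lower on the non-stem array, at 4.11 against 9.00, and no other was called. Of 11 general epithelial genes, 10 were called lower on the non-stem than on the wild-type stem array (3.82% of all genes). Their median difference was -2.48, led by the keratin gene Krt19 at 5.71 against 9.42. Against the LncGata6 mutant array 10 were again called lower (3.66% of all genes). Against the Ehf knockout array 8 were called higher (9.83% of all genes) and none lower. The part of epithelial content in the members' values was not tested.

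**Figure D4:**
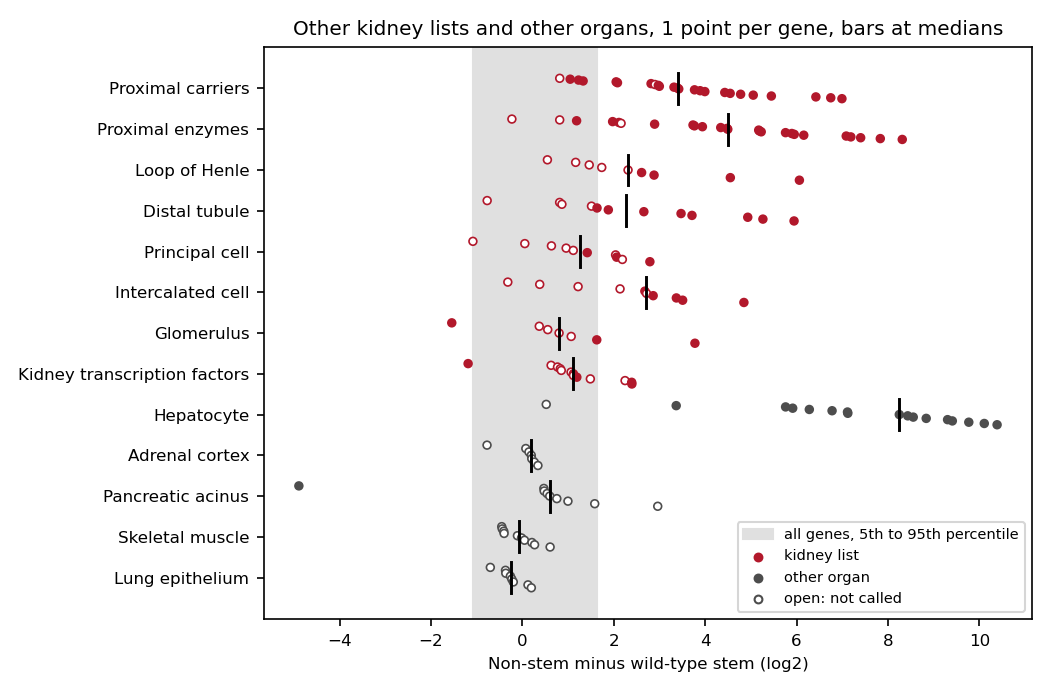
Difference between the non-stem and wild-type stem arrays (x axis, log2) for other nephron genes (red) and genes of other organs (grey), 1 row per list and 1 point per gene, with bars at list medians, open points not called and a grey band for the 5th to the 95th percentile of all genes. Proximal carriers, proximal enzymes and hepatocyte genes have medians of 3.41, 4.49 and 8.25, while adrenal, muscle and lung genes have medians of 0.20, -0.06 and -0.25.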

How the data were processed

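Clariom D arrays measured total RNA of 4 samples, 1 per group. The authors deposited 1 log2 value per feature. The submitters' processing notes list RMA and Affymetrix Power Tools. Their versions and the genome build are not given in the sources used here. Background removal in RMA compresses differences of dim features, and precision is limited by the number of arrays.

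Of 72688 features, 31258 carried 1 gene symbol after symbols were updated through a RefSeq table of GRCm38.p6, which changed 2108 annotations. Those with several symbols (1492) were left out, and another 39938 were unnamed here. For the 441 of 30702 genes with several features, the feature of highest mean was taken. The control limits come from 5222 negative controls.

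The members, lists, limits and motifs were chosen with earlier results of these data, and for the motifs the promoters, in view. Named are all members and, of each other list, at most 4 called genes with the largest difference between the non-stem and wild-type stem arrays, plus genes under the limit on all arrays. Lgr5, Ehf, Xist, Uty, Eif2s3y, Kdm5d, Ptprc and chromosomal neighbours lie outside that rule.

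Alternatives were another scaling (median, quantile and cyclic loess, the last 2 with limma 3.58.1 in R 4.3.3), another feature or symbol per gene, and other fold, brightness and control limits. Calls were tested on simulated data. Python 3.11.15, numpy 2.4.6, pandas 2.3.3 and matplotlib 3.10.9 were used.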

Additional observations from a re-analysis of the deposited data

Results flagged for a closer look

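For 2 members the LncGata6 mutant and Ehf knockout arrays differed from the wild-type stem array in opposite directions. Slc5a8 differed by 3.17 on the LncGata6 mutant array and by -1.88 on the Ehf knockout array, on the log2 scale. Slc13a1 differed by 1.37 and -3.22. Over all genes 0.664% were called higher on the LncGata6 mutant and lower on the Ehf knockout than on the wild-type stem array. The wild-type value of Slc5a8, 4.98, was under its control limit of 5.62. Members called lower on the Ehf knockout were 2 of 38, and 5.28% of all genes were called lower. These shares are not comparable, since besides these 2 only Aqp1 among the members was bright enough on the wild-type stem array to be called lower. Each value rests on 1 array per group and both share the wild-type stem array, so the difference between the mutants was not tested.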

How the results depend on the processing

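Of 83 counts of members recomputed under an alternative, 74 stayed within 1.5 times the reported count. None of 388 called differences changed sign under another scaling or feature. Each member has 1 feature, so the choice of feature could not change its differences, and only the scalings could have done so. The 9 counts that moved concern the mutant comparisons. Members called higher on the Ehf knockout than on the wild-type stem array, 1 as reported, were 2 with quantile normalization, 2 with cyclic loess, 2 with no brightness limit and 0 with a 4-fold limit. Members called lower there, 2 as reported, were 1 with cyclic loess, 1 with a 4-fold limit, 1 where the brighter value had to exceed the control limit and 1 with symbols not updated. Members called higher on the LncGata6 mutant array, 4 as reported, were 2 with a 4-fold limit. Apart from the fold and brightness limits, which set the calls by their construction, the cause was not tested. Median centring moved the median of all genes from 0.11 to -0.01 between the non-stem and wild-type stem arrays, from 0.29 to -0.01 for the non-stem against the Ehf knockout array, and from -0.20 to -0.01 between the Ehf knockout and wild-type stem arrays.

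Control limits at the 90th and 99th percentiles were chosen after seeing the data and gave 28 and 23 members, in place of 25, above background on the non-stem array alone. No paired analysis was possible because each group has 1 array, and no replicate could be left out. Dim features limit the folds, most of which are bounds.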

Other observations

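Genes next to the members on their chromosomes, taken in the gene order of the RefSeq table, were looked up after the members' values had been seen. Of 62 measured protein-coding neighbours that are no members, 12 were called higher on the non-stem than on the wild-type stem array (19.4%) and 2 lower. Of all 19232 protein-coding genes 1805 were called higher (9.39%). The median differences were 0.26 and 0.15, and no test of this difference was made. Slc22a30, an organic anion carrier beside Slc22a8, read 8.66 on the non-stem array and 1.19 on the wild-type stem array. Acsm1, an acyl-CoA synthetase gene beside Acsm2, read 8.00 on the non-stem array against 2.46. Ttpa, the vitamin E transfer protein gene of liver, read 6.64 against 2.44. Aqp5, which lies between Aqp2 and Aqp6 and encodes a water channel of glands, read 4.42 against 4.45, so it was at background on both arrays beside Aqp2 at 6.99.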
